A study of Mus musculus with 13 samples.

Results

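The 10 genes described here carry the follicle-stimulating hormone (FSH) signal inside the Sertoli cell, from the FSH receptor through cyclic AMP (cAMP) to the transcription factors at the end of the pathway. They were chosen by exact gene name in the table of estimated counts, which lists 54281 features, 27111 of them with a gene name. All 10 genes passed the filter on low counts and were among the 14421 genes tested. The members are *Fshr*, *Gnas*, *Prkaca*, *Prkar1a*, *Prkar2b*, *Akap12*, *Pde4b*, *Pde4d*, *Creb1* and *Crem*.

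RNA sequencing was done on Sertoli cells enriched from the testes of adult C57Bl/6J males, Bl6 wt in the labels, aged 3 to 5 months. Both groups carry that genotype, and sorting used DNA and mitochondrial dyes, with no transgene or surface marker. The males of the 7 MSUS samples (separation from the mother at random times, together with stress of the mother) had spent 3 h a day away from her over postnatal days 1 to 14. Meanwhile the mother was given a swim of 5 min at 18 °C or a restraint of 20 min. Those of the 6 control samples had been left undisturbed. Cells were sorted as diploid, large and high in mitochondrial signal, and each library was made from 5 ng of RNA. The labels do not say whether a sample is 1 male, so p-values measure the spread between samples.

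In the seminiferous tubule, Sertoli cells are the cells that carry the FSH receptor, a G protein coupled receptor of the cell membrane. Binding of FSH activates the stimulatory G protein, adenylyl cyclases make cAMP, and cAMP frees the catalytic subunits of protein kinase A (PKA) from its regulatory subunits. PKA then phosphorylates CREB family factors, which bind cAMP response elements (CREs) in promoters, while phosphodiesterases break cAMP down and anchoring proteins hold PKA in place.

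Control libraries held 13087108 to 18649819 estimated counts, and MSUS libraries 12701664 to 15693836. Levels are given as log2 CPM (CPM being counts scaled to the library total after TMM), and a difference of 1 on this scale is a doubling. The 5 Sertoli cell markers *Amhr2*, *Clu*, *Ctsl*, *Rhox5* and *Sox9* were detected in every sample, with mean control log2 CPM of 10.21, 13.07, 11.58, 7.38 and 8.67. Their mean was 10.18 ± 0.10 (SD, n = 6) in controls and 10.15 ± 0.09 (SD, n = 7) in MSUS samples. Transcripts of germ cells were present too. Elongated spermatid markers averaged 7.90 in controls and 8.09 in MSUS samples, and spermatocyte markers averaged 6.21 and 6.08. Of the 9 marker lists, the endothelial one had the smallest p between groups, at 1.81 to 2.27 in controls and 2.08 to 2.56 in MSUS samples (exact permutation test, two-sided p = 0.0262, adjusted p = 0.236 over the lists), and its part in the results was not tested. Its genes did not all go the same way. *Pecam1*, *Tek*, *Tie1* and *Vwf* had the higher mean in MSUS samples, but *Cdh5* the lower one (4.62 in controls, 4.46 in MSUS samples). *Tek* had 8 to 43 counts and *Tie1* 0 to 6. Peritubular myoid markers averaged 1.29 and 1.95, the widest gap between groups, with an SD of 1.06 in controls and 1.29 in MSUS samples (exact permutation test, p = 0.333). In bulk RNA, fewer cells of a type and less RNA per cell cannot be told apart.

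Across the pathway, no member passed the test between MSUS and control samples. Of the 10 members, 0 had p under 0.05 in the limma fit, against 5.42% of all genes tested, 3.02% higher and 2.40% lower in MSUS samples. With library size alone as the scaling, 325 genes had p under 0.05 and were higher and 469 lower, where the reported fit gave 435 and 346. 5 members were higher and 5 lower in MSUS samples (8 and 2 with the edgeR and the DESeq2 tests, 7 and 3 in limma with DESeq2 size factors, 4 and 6 with library size alone), with a median log2 fold change of 0.0012, and the median over all genes tested was -0.0018. The median absolute log2 fold change was 0.06 over the members and 0.10 over all genes. The 95% confidence intervals of the 10 fold changes lay between 0.718 and 1.24. After adjustment over all genes, limma called 0 of 14421, where 781 had an unadjusted p under 0.05. edgeR and DESeq2 also called 0, with 793 and 835 genes at an unadjusted p under 0.05.

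**Figure D1:**
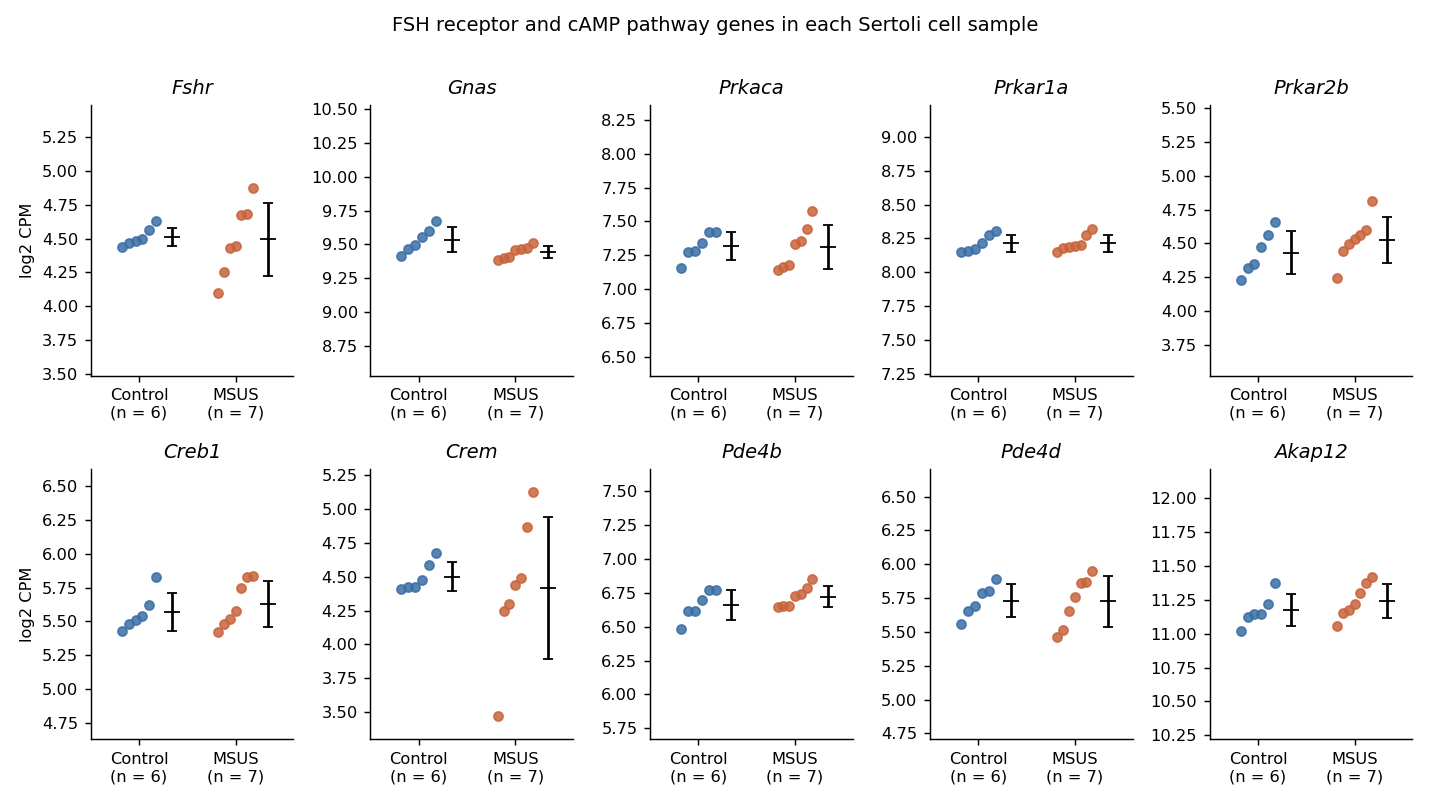
Level of each of the 10 genes (vertical axis, log2 CPM, each panel spanning the same 2 units) in 6 control and 7 MSUS samples. Points are samples, sorted by level, and the black marks give the mean and SD of each group. The groups overlap in every panel, and *Crem* and *Fshr* show the widest MSUS groups.

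*Fshr*, the receptor through which FSH acts, was expressed at 4.44, 4.49 and 4.63 log2 CPM in the lowest, median and highest control samples. In MSUS samples the lowest, median and highest values were 4.10, 4.45 and 4.87. The controls lay within 0.19 of each other, while 3 MSUS samples (MSUS 1, 23 and 26) were above every control and 3 (MSUS 5, 6 and 13) were below every control. The group means were therefore close, with a log2 fold change of -0.02 ± 0.11 (SE) and an adjusted p of 0.979 in limma. The gene lies on chromosome 17 at 88984952-89200675 on the minus strand (GRCm38) and has 1 annotated transcript. Its lowest count, 190 in MSUS 6, carries a counting error of about 7.25%. Of the MSUS samples outside the control range, MSUS 13 (4.43) lay next to the lowest control (4.44). MSUS 1 and 26 (4.67 and 4.68) lay close to the highest control (4.63).

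The spread of *Fshr* between samples differed more than its mean. The SD was 0.07 over the controls but 0.27 over the MSUS samples, 3.81 times as large, and 98.8% of the genes tested had a lower ratio. Pooled over both groups, the within-group SD of *Fshr* was 0.20. The median was also 0.20 over the 2301 genes within 0.5 log2 CPM of its level. The ratio does not tell a narrow control group from a wide MSUS group. The comparison of spreads was added after the values had been seen. In an exact permutation test of the squared deviations from the group medians, *Fshr* had p = 0.0192, and 3.90% of all genes had p under 0.05. No gene passed after adjustment, where the adjusted p of *Fshr* was 0.997. MSUS SDs were the larger ones for 64.5% of all genes. In the same exact permutation test, *Fshr* had p = 0.0781 with library size alone as the scaling and p = 0.0606 without MSUS 23.

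Set against the Sertoli cell markers in the same sample, *Fshr* had a log2 ratio of -5.67 ± 0.13 (SD, n = 6) to their mean in controls and of -5.65 ± 0.25 (SD, n = 7) in MSUS samples. The difference was 0.02 (exact permutation test, p = 0.881). This is less than the spread between samples in either group. The genes whose pattern was most like that of *Fshr* over the 13 samples, among 7696 named genes, were *Slc35a5* (r = 0.89), *Dnajc28* (r = 0.83), *Usp21* (r = 0.83), *Rnf26* (r = 0.81) and *Acadm* (r = 0.81).

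The promoter window of *Fshr* is shown because the gene is the entry point of the pathway, and that of *Prkar1a* because it alone held a complete CRE among the members with a window. Windows run from 250 bases before to 50 bases after each annotated start (RefSeq, GRCm38.p6), and they were found for 8 of the 10 members, all but *Akap12* and *Crem*, 21 windows in all. Capitals mark the CRE (TGACGTCA) or the E-box (CACGTG), searched on both strands.
Fshr, chr17:89200626-89200925, minus strand: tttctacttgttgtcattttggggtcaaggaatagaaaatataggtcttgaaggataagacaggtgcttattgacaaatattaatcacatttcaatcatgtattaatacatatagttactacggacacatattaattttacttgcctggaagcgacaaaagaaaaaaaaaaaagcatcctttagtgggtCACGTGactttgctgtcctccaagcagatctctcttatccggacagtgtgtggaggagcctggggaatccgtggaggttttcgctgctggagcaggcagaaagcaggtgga
Prkar1a, chr11:109650699-109650998, plus strand: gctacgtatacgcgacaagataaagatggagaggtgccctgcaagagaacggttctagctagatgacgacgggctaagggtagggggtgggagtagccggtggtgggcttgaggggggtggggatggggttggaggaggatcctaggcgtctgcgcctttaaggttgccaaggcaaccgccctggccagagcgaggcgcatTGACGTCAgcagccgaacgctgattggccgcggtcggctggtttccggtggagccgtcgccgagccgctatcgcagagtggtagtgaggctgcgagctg
The *Fshr* window held an E-box beginning at position -61 from the start and no CRE. The *Prkar1a* window held a CRE beginning at position -49, and an overlapping window from a start further upstream held the same copy. Of all 32851 RefSeq windows, 1.79% held a CRE and 7.15% an E-box. Among the 21 member windows, 2 held a CRE, both of *Prkar1a*, and 4 held an E-box, 1 each of *Fshr*, *Prkaca*, *Prkar1a* and *Prkar2b*.

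*Gnas* encodes the stimulatory G protein alpha subunit that links the receptor to adenylyl cyclase, and its imprinted locus gives rise to several transcripts that a count per gene adds together. Its level was 9.42, 9.53 and 9.67 log2 CPM in the lowest, median and highest control samples, and 9.39, 9.46 and 9.51 in MSUS samples. All 7 MSUS samples were below the control mean and 3 were below every control, while 4 lay within the control range. The log2 fold change was -0.09 ± 0.05 (SE), with a 95% confidence interval from -0.19 to 0.01 and an adjusted p of 0.878 in limma. This was the smallest p of the 10 members. The unadjusted p was under 0.05 with upper quartile scaling, with library size alone, with no filter on low counts and without Control 22, where the log2 fold change was -0.10, -0.11, -0.09 and -0.11, and the adjusted p passed in none of these fits. The gene lies on chromosome 2 at 174284320-174346744, where 2 genes of the opposite strand, *Nespas* and *Gm20721*, overlap it by 988 and 1469 bases, and the library kit keeps strand.

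PKA is a tetramer of catalytic and regulatory subunits. *Prkaca*, the main catalytic subunit, was at 7.16, 7.31 and 7.42 log2 CPM in the lowest, median and highest controls and at 7.14, 7.33 and 7.58 in MSUS samples. Its log2 fold change was -0.0033 ± 0.07 (SE), with an interval from -0.16 to 0.15. MSUS 1 was the highest of all samples and MSUS 13 the lowest. *Prkar1a*, the type I regulatory subunit, was the steadiest member: its controls lay between 8.15 and 8.30 and its MSUS samples between 8.15 and 8.32, both with a median of 8.19, a 1.13-fold range over all 13 samples. Its log2 fold change was 0.0024 ± 0.05 (SE), with an interval from -0.10 to 0.10.

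*Prkar2b*, a type II regulatory subunit, was at 4.23, 4.41 and 4.66 log2 CPM in the lowest, median and highest controls and at 4.24, 4.53 and 4.81 in MSUS samples. 6 of 7 MSUS samples were above the control mean, and 1 was above every control. The log2 fold change was 0.09 ± 0.10 (SE), with an adjusted p of 0.922 in limma. Within samples, the log2 ratio of *Prkar2b* to *Prkar1a* was -3.78 ± 0.15 (SD, n = 6) in controls and -3.69 ± 0.12 (SD, n = 7) in MSUS samples. That difference was 0.09 (exact permutation test, p = 0.235, adjusted p = 0.848 over 4 ratios).

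*Akap12* encodes an anchoring protein that ties PKA to the cell membrane and cytoskeleton. It was at 11.02, 11.14 and 11.38 log2 CPM in the lowest, median and highest controls and at 11.06, 11.22 and 11.42 in MSUS samples, with 19827 to 39087 counts per sample. 5 of 7 MSUS samples were above the control mean, and 1 was above every control. The log2 fold change was 0.07 ± 0.06 (SE), with an adjusted p of 0.899 in limma.

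*Pde4b* and *Pde4d* encode phosphodiesterases of the PDE4 family, which break down cAMP and so end the signal. *Pde4b* was at 6.48, 6.66 and 6.77 log2 CPM in the lowest, median and highest controls and at 6.64, 6.73 and 6.85 in MSUS samples. Its log2 fold change was 0.07 ± 0.06 (SE), with an adjusted p of 0.902 in limma, and 2 MSUS samples were above every control. *Pde4d* was at 5.56, 5.74 and 5.89 in controls and at 5.46, 5.76 and 5.95 in MSUS samples. The MSUS samples reached past the controls at both ends, with 1 above and 2 below every control, and the log2 fold change was -0.000032 ± 0.09 (SE). Within samples, the log2 ratio of *Pde4d* to *Pde4b* was -0.93 ± 0.19 (SD, n = 6) in controls and -0.998 ± 0.18 (SD, n = 7) in MSUS samples, and this difference did not pass (exact permutation test, p = 0.524).

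*Creb1* encodes the CRE-binding factor that PKA activates. Its level was 5.43, 5.53 and 5.83 log2 CPM in the lowest, median and highest controls and 5.42, 5.57 and 5.83 in MSUS samples. The log2 fold change was 0.06 ± 0.09 (SE), with an adjusted p of 0.942 in limma. Control 10, MSUS 1 and MSUS 26 stood together at the top, at 5.83, so the highest samples came from both groups.

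*Crem* encodes a CRE modulator with activating and repressing isoforms. The activating form is abundant in male germ cells after meiosis, and a short repressing form is induced by cAMP. Counts per gene pool these isoforms. Controls were at 4.41, 4.45 and 4.68 log2 CPM in the lowest, median and highest samples, and MSUS samples at 3.47, 4.44 and 5.13. MSUS 1 was the lowest and MSUS 11 the highest of all 13, a 3.16-fold range and the widest of the 10 members. 2 MSUS samples were above every control and 3 below every control. The log2 fold change was -0.09 ± 0.18 (SE), with an adjusted p of 0.952 in limma, and it was 0.08 without MSUS 1. The 126 counts of MSUS 1 carry a counting error of about 8.91%, far less than its distance from the other samples.

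*Crem* had an SD of 0.11 over the controls and 0.53 over the MSUS samples, 4.82 times as large, and 99.6% of the genes tested had a lower ratio. In the exact permutation test of the spread this gave p = 0.0857 and an adjusted p of 0.997, where 3.90% of all genes had p under 0.05. In the same test without 1 sample, p ran from 0.0442 without Control 10 to 0.206 without MSUS 5 or without MSUS 11. The log2 ratio of *Crem* to *Creb1* was -1.07 ± 0.08 (SD, n = 6) within control samples and -1.21 ± 0.64 (SD, n = 7) within MSUS samples. It ran between -1.15 and -0.96 over the controls, and between -2.36 in MSUS 1 and -0.30 in MSUS 11, with no difference in mean that passed (exact permutation test, p = 0.636).

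The samples at both ends for *Crem* were also at both ends for germ cell markers. Spermatocyte markers, of which 5 of 5 were detected in every sample, averaged 5.37 log2 CPM in MSUS 1, 6.65 in MSUS 11 and 5.84 to 6.35 in controls. Round spermatid markers averaged 3.44 in MSUS 1, 4.78 in MSUS 11 and 3.57 to 3.91 in controls, also with 5 of 5 detected. In MSUS 1 these genes did not all go the same way. *Acr* was at 2.11 (control mean 3.42), *Acrv1* at 2.17 (2.45) and *Tssk2* at 4.18 (4.52). *Spaca1* (4.85) and *Tssk1* (3.90) were above their control means of 4.78 and 3.82. Elongated spermatid markers, by contrast, were above every control (7.50 to 8.13) in both, at 8.29 in MSUS 1 and 8.56 in MSUS 11. Over the 13 samples *Crem* correlated with spermatocyte markers at r = 0.76 (permutation p = 0.00759) and rho = 0.48 (permutation p = 0.101), a relation added after the values had been seen, with adjusted p = 0.101 over 40 relations. With round spermatid markers it was r = 0.66 (permutation p = 0.0402) and rho = 0.41 (permutation p = 0.164), with adjusted p = 0.182 over 30 relations. Without MSUS 1 and MSUS 11 the values were r = -0.06 and r = 0.03, so both relations rest on these samples. With elongated spermatid markers it was r = 0.13 (permutation p = 0.664) and rho = 0.29 (permutation p = 0.334), and with their level as a covariate in limma the log2 fold change of *Crem* was -0.12. Against the Sertoli cell markers *Crem* had r = -0.64 (permutation p = 0.0101, adjusted p = 0.101) and rho = -0.51 (permutation p = 0.0810). Without Control 10 and Control 24, the samples farthest from the median marker level, r was -0.74 with adjusted p = 0.0756. This relation was not computed without MSUS 1 and MSUS 11. The genes whose pattern was most like that of *Crem*, named after its values were seen, were *Lrrc46* (r = 0.92), *Eid3* (r = 0.91), *Cfap45* (r = 0.90), *Clgn* (r = 0.90) and *Zfp541* (r = 0.90). They were picked as the highest r of 7696 named genes, so high values follow from the choice. *Clgn*, for one, encodes a chaperone of male germ cells, and the part of germ cell RNA in this pattern was not tested.

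**Figure D2:**
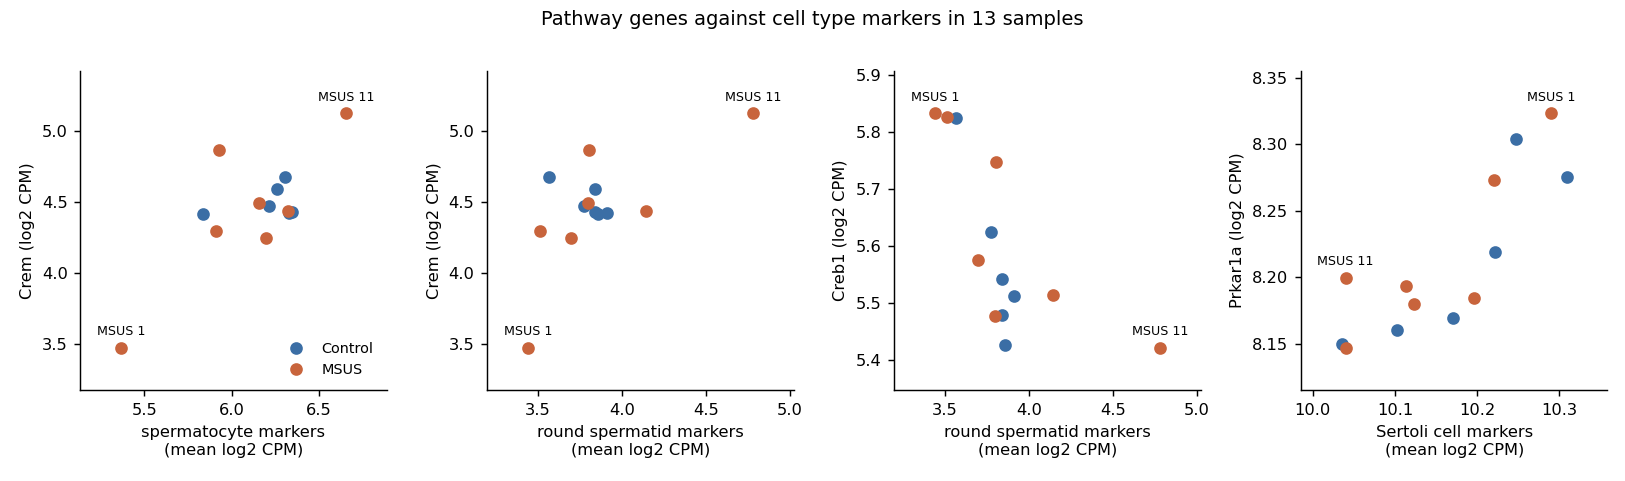
Levels of *Crem*, *Creb1* and *Prkar1a* (vertical axes, log2 CPM) against the mean log2 CPM of spermatocyte, round spermatid or Sertoli cell markers (horizontal axes). Each point is 1 of 6 control (blue) or 7 MSUS (orange) samples. MSUS 1 and MSUS 11 stand at the ends for *Crem*, at 3.47 and 5.13, while the other samples form a cloud between them.

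Each of the 10 members was set against Sertoli cell, round spermatid and elongated spermatid markers, 30 relations in all. Values in a sample share its library and its scaling. 7 had p under 0.05 and 2 passed after adjustment. The share of all genes tested that relate as closely to these markers was not computed, so these relations are not shown to be particular to the members. *Prkar1a* went with the Sertoli cell markers (r = 0.83, permutation p = 0.00051, adjusted p = 0.0153 and rho = 0.81, permutation p = 0.0011). Without the samples farthest from the median, Control 10 and Control 24, r was 0.80 with adjusted p = 0.0756. *Creb1* went against the round spermatid markers (r = -0.69, permutation p = 0.0025, adjusted p = 0.0375 and rho = -0.81, permutation p = 0.0015), and without MSUS 1 and MSUS 11 r was -0.71 with adjusted p = 0.103. With the group means removed, r was 0.85 and -0.74. With library size alone as the scaling, 0 relations passed.

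The members were also set against each other, 45 pairs, after the values had been seen. Coefficients ran from -0.69 to 0.82, and 28 were positive. *Creb1* with *Akap12* was the only pair that passed after adjustment (r = 0.82, permutation p = 0.0009, adjusted p = 0.0405 and rho = 0.59, permutation p = 0.0374), the rank coefficient did not pass (adjusted p = 0.280), and r was 0.68 without the farthest samples. *Pde4d* with *Akap12* (r = 0.76, adjusted p = 0.0751) and *Prkaca* with *Prkar1a* (r = 0.71, adjusted p = 0.0840), both by permutation, did not pass. *Fshr* and *Crem* went in opposite directions by rank (rho = -0.79, permutation p = 0.0023, adjusted p = 0.102), with r = -0.50.

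Levels of different genes can be compared only per length. With the summed length of all annotated exons (GENCODE vM21), the control level was 358 ± 30.2 CPM per kilobase (SD, n = 6) for *Akap12*, far above the rest. *Prkar1a* (68.7 ± 3.1), *Gnas* (66.4 ± 4.3) and *Prkaca* (64.1 ± 4.5) followed at nearly the same level. Of these neighbours, *Prkar1a* was above *Gnas* in 11 of 13 samples and *Gnas* above *Prkaca* in 8 of 13, and their ranges overlapped. *Fshr* (9.61 ± 0.48) and *Pde4b* (9.58 ± 0.73) came next and did not differ beyond their spread, with *Fshr* the higher one in 5 of 13 samples. *Prkar2b* was at 5.89 ± 0.67, *Pde4d* at 4.42 ± 0.37, *Crem* at 3.82 ± 0.30 and *Creb1* at 3.46 ± 0.36. Ranges overlapped between each of these neighbours, although *Prkar2b* was above *Pde4d* in 13 of 13 samples.

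The order depended on the length used. The 2 lengths were equal for *Fshr*, at 2360 bases, and differed most for *Creb1*, at 13742 and 1420 bases. With the median transcript length, *Gnas* was at 435 ± 28.4 CPM per kilobase, *Akap12* at 390 ± 32.9 and *Prkar1a* at 309 ± 13.9. *Creb1* moved from the last place to the sixth at 33.4 ± 3.5, and *Fshr*, unchanged at 9.61, moved from the fifth place to the ninth. Under both lengths, *Akap12*, *Prkar1a*, *Gnas* and *Prkaca* were the highest members.

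**Figure D3:**
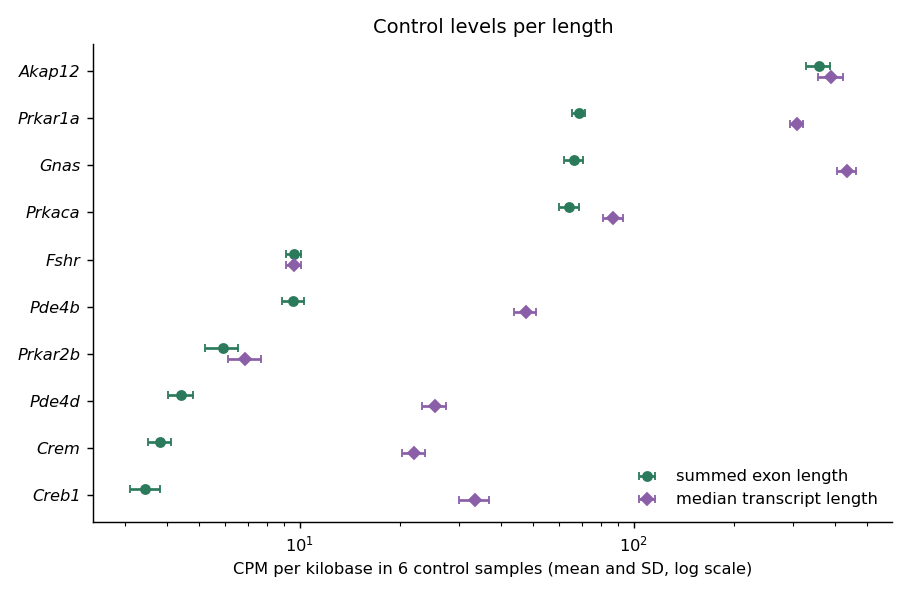
Control level of each member per kilobase (horizontal axis, CPM per kilobase on a log scale) with 2 ways to set gene length. Points and bars are the mean and SD of 6 control samples, circles for summed exon length and diamonds for median transcript length. *Akap12*, *Prkar1a*, *Gnas* and *Prkaca* are the highest under both, while *Fshr* stays at 9.61 and *Gnas* moves from 66.4 to 435 with the length used.

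**Figure D4:**
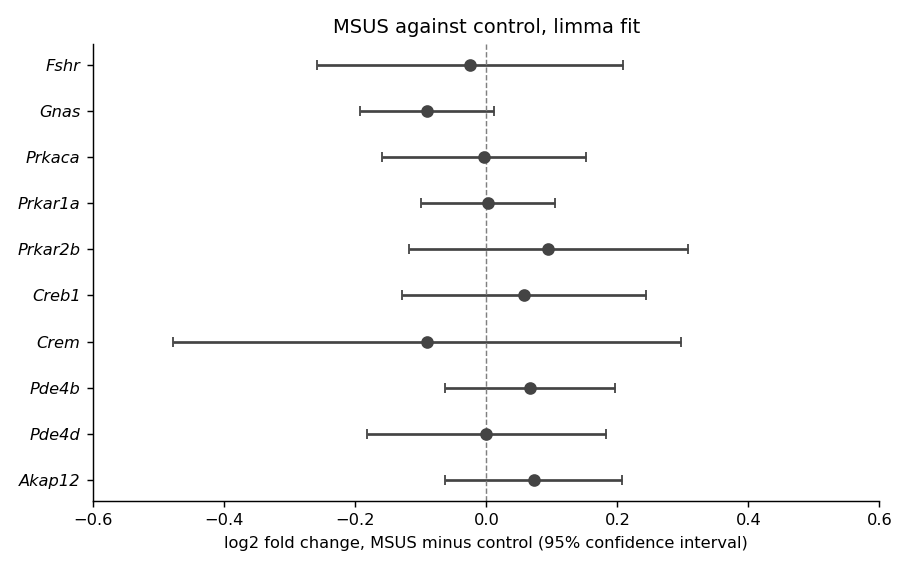
Log2 fold change of each member, MSUS minus control (horizontal axis), with its 95% confidence interval from the limma fit of 6 control and 7 MSUS samples. Every interval includes 0, and that of *Crem*, from -0.48 to 0.30, is the widest.

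The rest of the pathway was examined with a list of 89 genes by role, of which 88 were in the table and 73 passed the filter. Genes named below by level were taken by their control log2 CPM, given in brackets, which sets no order between genes per length. 4 of 73 (5.48%) had p under 0.05, against the 5.42% of all genes, and 0 passed after adjustment. 47 were higher and 26 lower (43 and 30 with library size alone), with a median log2 fold change of 0.04. Among the ligands, *Fshb*, the FSH beta subunit made in the pituitary, had 0 to 3 counts per sample, and *Cga*, the shared alpha subunit, had 0 in all 13. *Lhcgr*, the receptor for luteinising hormone on Leydig cells, had 16 to 63 counts. *Fshr* had 190 to 322 counts in the same samples.

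Next to *Gnas*, 8 other G protein subunits were tested. The inhibitory alpha subunit *Gnai2*, which lowers cAMP production, was at 8.92 to 9.17 log2 CPM in controls and at 8.78 to 9.09 in MSUS samples, with a log2 fold change of -0.13 ± 0.06 (SE). It was below the control mean in 6 of 7 MSUS samples, and its adjusted p was 0.878 in limma. The beta subunits *Gnb1* and *Gnb2* were at 8.94 and 7.16 in controls, with log2 fold changes of -0.04 and -0.05. Of 7 genes that switch the receptor off, 0 had p under 0.05, among them *Grk5* (5.71), *Arrb1* (5.66) and *Grk4* (4.68). Adenylyl cyclases, which make the cAMP, included *Adcy9* (6.80), *Adcy2* (6.03) and the soluble cyclase *Adcy10* (4.23), and 0 of 6 had p under 0.05. Over all genes, the share with p under 0.05 was 5.42%.

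Of the remaining PKA subunits, *Prkar2a* was at 7.04 and *Prkacb* at 5.27 log2 CPM in controls, with log2 fold changes of 0.04 and 0.03, while *Prkar1b* had 0 to 15 counts and was not tested. The PKA inhibitors *Pkig* (6.41), *Pkib* (5.31) and *Pkia* (1.36) had log2 fold changes of -0.01, -0.03 and -0.06. Beside *Akap12*, 13 anchoring proteins were tested, of which 11 were higher in MSUS samples, a lean that was not tested, and 2 had p under 0.05, against 5.42% of all genes. The samples also held germ cell RNA, and which cells gave these transcripts was not tested. *Akap8l*, a nuclear member, had 6.96 to 7.39 log2 CPM in controls and 7.12 to 7.61 in MSUS samples, where all 7 lay above the mean of the controls, and a log2 fold change of 0.22 ± 0.08 (SE). Its relative *Akap8* had a log2 fold change of 0.14 ± 0.07 (SE), and both had an adjusted p of 0.878 in limma. *Akap13* (7.55) and *Akap9* (7.43) had log2 fold changes of 0.15 and 0.22 that did not pass.

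Of the 10 other cAMP phosphodiesterases tested, which include *Pde10a* (6.75), *Pde8a* (6.01) and *Pde1c* (4.91), 0 had p under 0.05. The share over all genes was 5.42%. The cAMP sensor *Rapgef3*, a PKA-independent exchange factor, had a log2 fold change of 0.23 ± 0.12 (SE) that did not pass, and *Rapgef4* was at 1.40. Partners and coactivators of CREB include *Crtc3* (7.18), *Ep300* (7.08) and *Crebbp* (7.01). 6 of 6 were higher in MSUS samples (5 of 6 with library size alone), a lean that was not tested, and none had p under 0.05. Their log2 fold changes ran from 0.0069 to 0.16, where the median over all genes tested was -0.0018.

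Of 15 genes known to respond to FSH or cAMP that were tested, 1 (6.67%) had p under 0.05, against 5.42% of all genes. *Per1*, a clock gene with a CRE in its promoter, was at 6.99 to 7.47 log2 CPM in controls and at 7.30 to 7.73 in MSUS samples. Its log2 fold change was 0.29 ± 0.09 (SE), with an adjusted p of 0.878 in limma, and each of the 7 MSUS samples lay above the mean of the controls. *Per1* had the smallest p of the 73 pathway genes. The inhibin subunits *Inha* (8.87) and *Inhbb* (8.18) and the early response gene *Egr1* (8.29) had log2 fold changes of -0.06, -0.06 and 0.10.

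**Figure D5:**
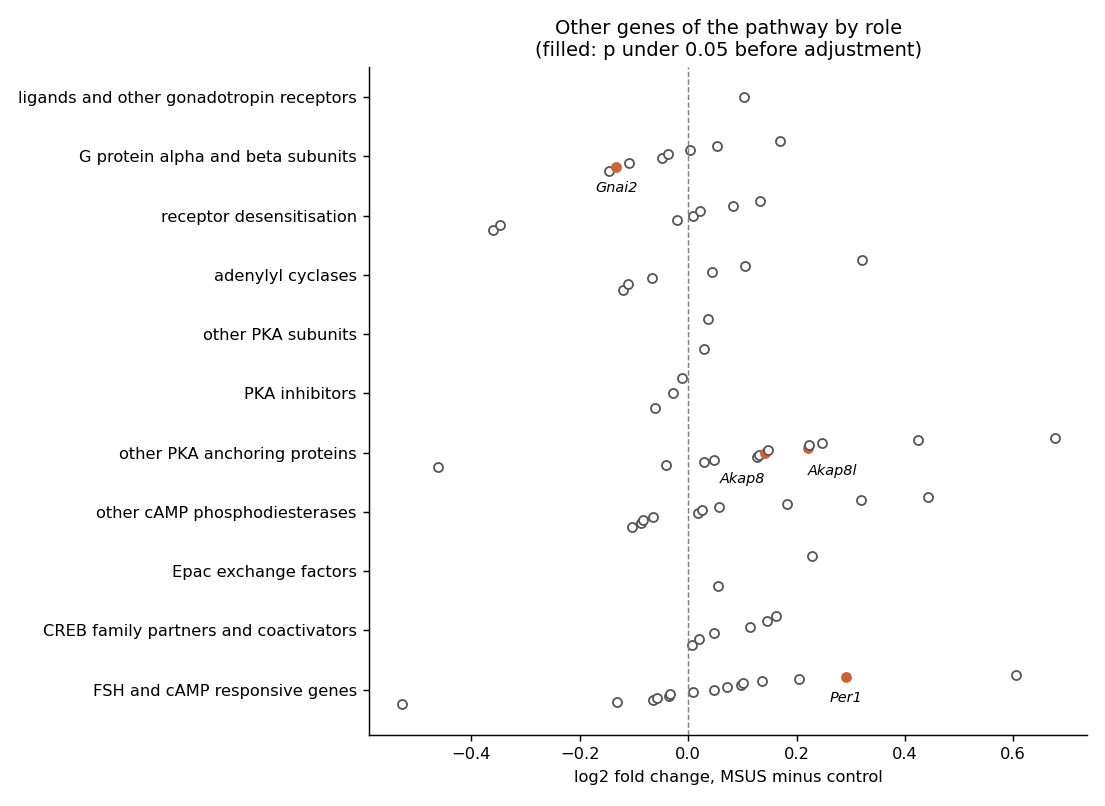
Log2 fold change of the 73 other pathway genes tested, MSUS minus control (horizontal axis), by role (vertical axis). Each point is a gene, filled where the unadjusted p in the limma fit of 6 control and 7 MSUS samples was under 0.05, and only *Gnai2*, *Akap8*, *Akap8l* and *Per1* are filled.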

How the data were processed

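RNA of Sertoli cells in 6 control and 7 MSUS samples was sequenced after 12 PCR cycles, single-end at 100 bp. The authors trimmed reads with Trim Galore 0.6.5, assigned them with Salmon 1.1.0 to GENCODE vM23 transcripts and deposited estimated counts per gene, without normalization. Salmon shares reads among similar transcripts, so these counts need not be whole, and they were rounded here. Features without a gene name, 20.7% to 26.7% of the counts, were left out.

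Counts were TMM-scaled (edgeR 4.0.16) and tested in limma 3.58.1 with voom, as the study's methods state. The filter (filterByExpr) and the Benjamini-Hochberg adjustment over all genes were chosen here. Log2 CPM used a prior count of 2. Depth allows 126 counts or more for each member. Ratios and marker lists were compared by exact permutation over all 1716 splits, two-sided, and correlations with 100000 permutations. The statistic for spreads (the ratio of mean squared deviations from the group medians) was chosen among 4 on simulated data. Gene coordinates and lengths came from GENCODE vM21 (GRCm38), an earlier release than that of the authors.

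The members and the lists were chosen with earlier results of these data known. Named genes are the members, the Sertoli cell markers, pathway genes with p under 0.05 or among the 3 highest of their role in controls, and the 5 genes most like *Fshr*. The 5 most like *Crem* were added after its values were seen, and so were the names of the endothelial and round spermatid markers. Alternatives were other tests (edgeR, DESeq2 1.42.0), scalings, filters, a spermatid covariate and leaving out samples.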

Additional observations from a re-analysis of the deposited data

Results flagged for a closer look

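46 groups of values, of members, ratios and marker lists, were searched for a single sample far from the rest of its group, and 3 were found where chance gives about 2.3 (1 in 20). None was a member. In controls, the spermatogonium marker mean of Control 22 was 0.03 log2 CPM, where the next sample had 0.50. The spermatocyte marker mean of Control 14 was 5.84, where the next control had 6.21. The Leydig cell marker mean of Control 9 was 1.34, where the next control had 2.54. For the members in these samples, *Crem* was at 4.43, 4.41 and 4.59 log2 CPM and *Fshr* at 4.56, 4.48 and 4.44.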

How the results depend on the processing

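No gene passed after adjustment in any alternative. Members with p under 0.05 numbered 0 in the reported fit and 1, *Gnas*, with upper quartile scaling, library size alone, no filter, or without Control 22. In those fits 5.71%, 5.51%, 4.99% and 5.53% of all genes had p under 0.05. Pathway genes with p under 0.05 numbered 4 of 73 (5.48%), where all genes gave 5.42%. With the elongated spermatid covariate they numbered 11 of 73, where all genes gave 8.34%. The pathway share was the higher one in that fit, a difference that was not tested. Leaving out 1 sample gave 0 to 1 members and 2 to 7 pathway genes, where the share over all genes ran from 3.74% to 7.70%. The 2 pathway genes without MSUS 5 stood beside the lowest share and the 7 without Control 10 beside the highest. Marker relations that passed numbered 2, and 0 with library size alone or without the farthest samples, and 0 to 3 without 1 sample. Members with an unadjusted p under 0.05 for spread numbered 1, and 0 with library size alone, or 0 to 3 without 1 sample. The 3 were found without Control 10. The share over all genes was 3.90% in the reported setting and was not computed in the others, so these counts have no background beside them.

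*Akap12*, *Creb1*, *Gnas*, *Pde4b* and *Prkar2b* kept their direction in every alternative. Members near 0 changed sign. *Fshr* was at 0.00053 with edgeR, 0.0047 with DESeq2 and 0.018 with the covariate. *Prkaca* was at 0.00021, 0.0050 and 0.022 in these, and 0.0015 with DESeq2 size factors. *Prkar1a* was at -0.010 with sample weights, -0.0091 with upper quartile scaling, -0.013 with library size alone, -0.0015 with no filter and -0.0044 with unnamed features kept. *Pde4d* was at 0.0016 with edgeR, 0.0066 with DESeq2, 0.0024 with weights, 0.0048 with size factors, 0.0030 with the 1 CPM filter and 0.013 with the covariate. The cause was not tested.

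Without 1 sample, log2 fold changes ran from -0.080 to 0.044 for *Fshr*, -0.048 to 0.028 for *Prkaca*, -0.016 to 0.022 for *Prkar1a*, -0.038 to 0.040 for *Pde4d*, -0.21 to 0.075 for *Crem*. The *Crem* to *Creb1* ratio difference ran from -0.29 to 0.053, and that of *Fshr* to the Sertoli cell markers from -0.033 to 0.092. No paired analysis was run, because the sample labels used here give no pairing, litter or cage. The paper lists the cage and litter of each mouse, which were not used here, so samples were treated as independent.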
